A study of Mus musculus with 2 samples.

Results

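The proteasome subunit genes were taken as every gene of the count table whose symbol starts with Psma, Psmb, Psmc, Psmd or Psme followed by a digit, leaving out pseudogenes, which gave 45 of 31053 genes. By role these are 8 alpha subunits of the 20S core, 4 structural and 3 catalytic beta subunits, 3 immunoproteasome subunits, 1 thymus subunit, 6 ATPases and 11 non-ATPase subunits of the 19S cap, 3 assembly chaperones of that cap and 4 activators. The last 2 share only the letters of the name or the sequence of another member: Psmc3ip encodes a DNA recombination factor, and Psme2b is a copy of Psme2 whose reads the counting could split between both genes. Both were kept in the counts because the choice went by symbol.

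The proteasome is the protease that degrades ubiquitin-tagged proteins inside a closed barrel, the 20S core, with the 19S cap recognising, unfolding and feeding in the substrate. In hematopoietic cells, and in other cells exposed to interferon gamma, the catalytic subunits Psmb5, Psmb6 and Psmb7 are in part replaced by Psmb8, Psmb9 and Psmb10, and the resulting immunoproteasome is known for making peptides that MHC class I molecules present. The 2 sets of subunits compete for the same places in a new core, so the transcripts of each pair are given side by side.

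The cells came from the bone marrow of FVB mice and were sorted as E-cadherin+cKIT+ or as E-cadherin+cKIT- cells, cKIT being the stem cell factor receptor that progenitors and mast cells carry. Each sort gave 1 droplet single-cell library of 3′ ends, so no difference between the sorts has a replicate check, and the intervals below cover counting error only. The cells came from 3 mice, described in one place as wild type and in another as carrying the mTmG reporter and Vav-iCre, a Cre active in hematopoietic cells, and how the mice were divided over the libraries is not given. Of the deposited cell barcodes, 6479 of 6632 in the cKIT+ library and 3662 of 3745 in the cKIT- library were kept, with 91108781 and 22869169 unique molecular identifiers (UMIs, 1 per captured transcript) and medians of 13039 and 4416.5 UMIs per cell. The libraries shared 10 barcodes. Cells were placed by the share of their UMIs from marker genes: basophil-gated cells, in which Mcpt8 and Prss34 made up 0.5% or more of UMIs, numbered 2627 in the cKIT+ and 2138 in the cKIT- library, and 1303 and 1010 cells passed no gate. Levels are given as CPM, a gene's share of all UMIs over the summed cells of a group, 1 CPM being 0.0001% of them. Because 3′ counts are not scaled for length and capture differs between transcripts, each gene was compared with itself. The exception is the ratio of the immunoproteasome to the catalytic subunits, which sets different genes against each other. That ratio is compared between groups of cells, and a value of 1 does not mean equal amounts of transcript. Among the genes of the sort markers, Kit was at 37.1 CPM in the cKIT+ and 0.875 CPM in the cKIT- library and the E-cadherin gene Cdh1 at 62.8 and 193 CPM.

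Proteasome genes took a larger share of the transcripts in the cKIT+ library. They held 620427 of its UMIs, 0.681% (95% exact Poisson interval 0.679 to 0.683), and 133929 UMIs of the cKIT- library, 0.586% (0.583 to 0.589), or a median of 82 and 22 UMIs per cell. In a sum over cells, fewer cells of a type and less RNA per cell cannot be told apart.

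Most members were a little higher in the cKIT+ cells, and few differed by much. Of the 42 members with a mean of 10 CPM or more, 34 had a ratio of cKIT+ to cKIT- above 1 and 8 below, the median log2 ratio was 0.26 against -0.04 over all genes, and 1 member was at least 1.5-fold higher and 0 were at least 1.5-fold lower. Over all genes tested, 15.2% were at least 1.5-fold higher and 18.4% lower. The summed level of the non-ATPase subunits of the cap was 1.28 times that of the cKIT- library, that of the catalytic beta subunits 1.24, the immunoproteasome subunits 1.18, the ATPases 1.17, the alpha subunits 1.15, the activators 1.10 and the structural beta subunits 1.09. The sum of the 3 assembly chaperones was 0.834 times that of the cKIT- library, from Psmd9 alone, as Psmd5 and Psmd10 had ratios of 1.06 and 1.00. The members below the level limit were Psma8, an alpha subunit of the testis, at 2.45 and 0.787 CPM, the thymus subunit Psmb11 at 0.0439 and 0.0875 CPM, and Psme2b at 8.28 and 9.01 CPM.

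**Figure D1:**
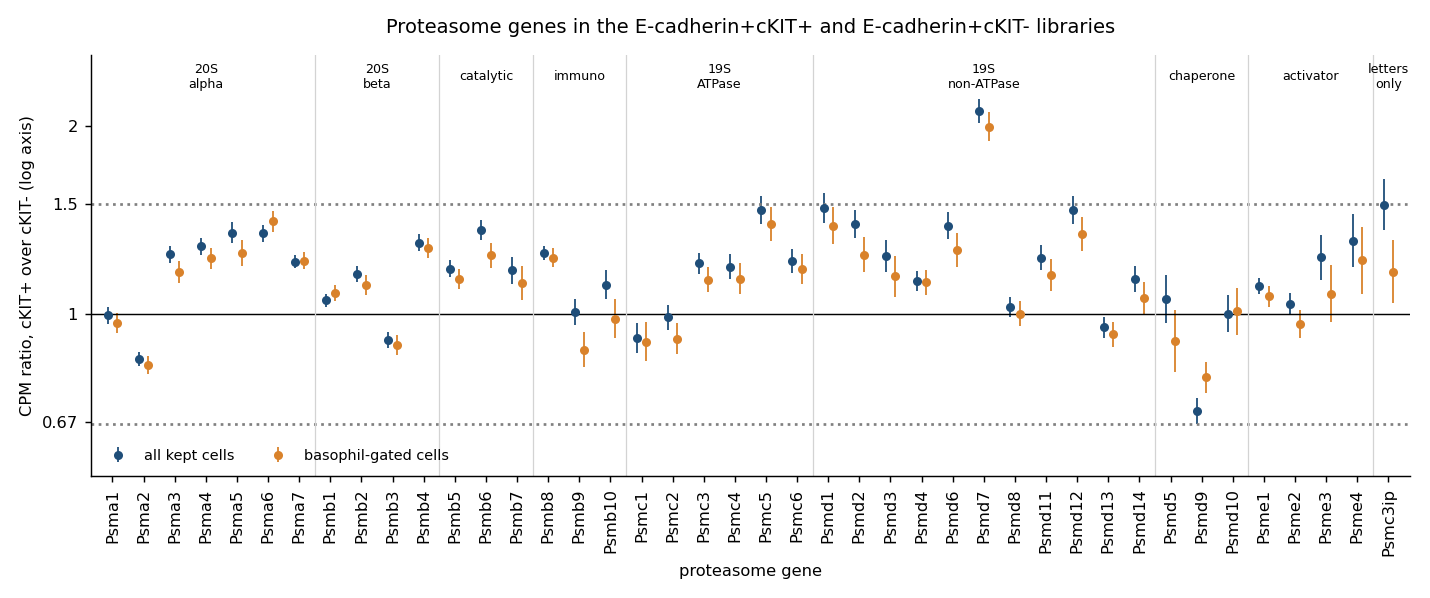
Ratio of CPM in the cKIT+ to the cKIT- library (vertical axis, log scale) for each of the 42 tested proteasome genes (horizontal axis, grouped by role), over all kept cells (blue) and basophil-gated cells (orange), with 95% intervals for counting error and dotted lines at 1.5-fold. Psmd7 stands above the upper line for all kept cells at 2.11 and basophil-gated cells at 1.99, and Psmd9 is lowest for both at 0.698 and 0.791.

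The member past the limit was Psmd7 (chr8:107580381-107588464, minus strand, GRCm38), a subunit of the cap's lid and the partner of the deubiquitinase Psmd14. It stood at 216 CPM in the cKIT+ and at 102 CPM in the cKIT- cells, so 2.11 times as high (2.02 to 2.21). Psmd14 itself stood at 101 and 89.0 CPM. Next in order were Psmc3ip at 33.9 and 22.7 CPM, a ratio of 1.5 (1.36 to 1.65) that falls just under the limit before rounding, and Psmd1, a scaffold of the cap's base, at 94.7 and 64.1 CPM, a ratio of 1.48 (1.40 to 1.56). The 3 lowest ratios were those of Psmd9, a chaperone of the ATPase ring, at 69.3 and 99.2 CPM (0.698, 0.666 to 0.733), the alpha subunit Psma2 at 274 and 324 CPM (0.846) and the structural beta subunit Psmb3 at 219 and 241 CPM (0.907).

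Within the core, the catalytic subunits were between 1.17 and 1.36 times as high in the cKIT+ library. Psmb5, which carries the chymotrypsin-like site, was at 270 and 228 CPM, Psmb6, with the caspase-like site, at 206 and 151 CPM, and Psmb7, with the trypsin-like site, at 97.3 and 82.8 CPM. Of their replacements, Psmb8 was at 349 and 279 CPM (1.25), Psmb10 at 80.8 and 72.6 CPM (1.11), and Psmb9 at 89.8 and 89.2 CPM, which did not differ beyond counting error (1.01, 0.959 to 1.06). The activators Psme1 and Psme2, which form the interferon-inducible ring known as PA28, were at 258 and 233 CPM and at 139 and 134 CPM. The nuclear activators Psme3 and Psme4 were at 36.5 and 29.6 CPM and at 27.5 and 21.0 CPM.

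The sorts hold different mixtures of cells, so the comparison was repeated among the basophil-gated cells alone. The member count was the same, with 1 of 42 at least 1.5-fold higher in the cKIT+ library and 0 lower, where 11.1% of all genes tested were higher and 14.3% lower. That member was again Psmd7, at 203 and 102 CPM (1.99, 1.89 to 2.10). It was followed by the alpha subunit Psma6 at 293 and 208 CPM (1.41) and the ATPase Psmc5 at 108 and 77.8 CPM (1.39). At the other end, Psmd9 was at 86.9 and 110 CPM (0.791, 0.746 to 0.838), Psma2 had a ratio of 0.827, and Psmb9 was at 74.3 and 84.9 CPM (0.876, 0.821 to 0.934). Psmb8 kept a higher level in the cKIT+ basophil-gated cells, 330 against 268 CPM (1.23), while Psmb10 was at 66.0 and 67.2 CPM (0.982). For the catalytic subunits the values were 275 and 242 CPM for Psmb5, 196 and 158 CPM for Psmb6 and 93.7 and 83.5 CPM for Psmb7. Psme1 was at 248 and 233 CPM, Psme2 at 129 and 134 CPM, Psme3 at 33.1 and 30.7 CPM and Psme4 at 26.0 and 21.4 CPM. The median log2 ratio of the members was 0.18, against -0.04 over all genes tested. Gating does not make the 2 groups alike: as given below, they still differed in cell cycle genes and in Prss34, and the libraries differed in depth. The part of these in the median was not tested.

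Lists of genes that work with the proteasome are read against the same shares of all genes, 15.2% higher and 18.4% lower. Of 8 genes of assembly and transcription, 1 was at least 1.5-fold higher in the cKIT+ library, the assembly chaperone gene Psmg4 at 64.7 and 35.5 CPM (1.82), and Nfe2l2, which encodes an oxidative stress factor, was at 56.1 and 72.4 CPM (0.775). The core's maturation factor Pomp was at 215.5 and 193 CPM. Of 10 genes for proteins that bind the proteasome or deliver substrates, 1 was higher, the deubiquitinase Usp14 at 83 and 46.4 CPM (1.79), and neither list exceeded the share of all genes. Of the 9 tested genes of MHC class I presentation, 0 were higher and 4 were lower in the cKIT+ library. These were the transcription factor Irf1 at 19.5 and 44.3 CPM (0.441), the peptide transporter subunit Tap2 at 46.3 and 98.3 CPM (0.471), the heavy chain H2-D1 at 1212 and 2410 CPM (0.503) and the peptide-loading factor Tapbp at 79.9 and 155 CPM (0.515). Tap1, the transporter's other subunit, was at 47.9 and 46.8 CPM, B2m, the light chain, at 842 and 845 CPM and the heavy chain H2-K1 at 701 and 645 CPM.

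The basophil-gated cells were next divided by the share of their UMIs from Prss34, a basophil serine protease gene that is not a member: under 0.5% was called low and 2% or more high. In the cKIT+ library, with 616 low and 1190 high cells, 0 of 42 members were at least 1.5-fold higher in the low cells and 0 lower, where 4.82% of all genes tested were higher and 5.08% lower. The median log2 ratio of low to high was 0.01 for the members and 0.02 for all genes. The immunoproteasome subunits lay at the upper end of that narrow range, with a summed ratio of 1.21, against 1.03 for the catalytic subunits and 0.961 for the ATPases. Psmb9 was at 89.9 CPM in the low and 67.4 CPM in the high cells (1.33, 1.22 to 1.46), Psmb8 at 364 and 307 CPM (1.19, 1.14 to 1.24) and Psmb10 at 71.9 and 62.3 CPM (1.15), while Psmb5, Psmb6 and Psmb7 had ratios of 1.01, 1.05 and 1.04. Psmd7 was at 224 and 184 CPM (1.22) and Psme1 at 270.5 and 233 CPM (1.16). The lowest ratios were 0.867 for the ATPase Psmc3, at 154 and 178 CPM, 0.895 for Psmd13 and 0.900 for Psmd9.

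The cKIT- library gave another picture. Among its basophil-gated cells, 267 were low and 1624 high, and 16 of 42 members were at least 1.5-fold lower in the low cells and 0 higher, where 20.6% of all genes tested were lower and 21.1% higher. The median log2 ratio was -0.49 for the members and 0.08 for all genes. The 16 comprised 4 of 6 ATPases (Psmc1, Psmc3, Psmc4 and Psmc5), 6 of 11 non-ATPase subunits (Psmd1, Psmd2, Psmd3, Psmd6, Psmd12 and Psmd14), 2 of 3 catalytic subunits (Psmb5 and Psmb6), 1 alpha subunit (Psma6), 1 structural beta subunit (Psmb2), the activator Psme3 and Psmc3ip. The deubiquitinase Psmd14 had the lowest ratio, at 41.8 and 103 CPM (0.405, 0.288 to 0.554), followed by Psmc4 at 49.1 and 108 CPM (0.456) and Psmc5 at 38.7 and 82.6 CPM (0.468). Psmb5 was at 149 and 254 CPM (0.588), Psmb6 at 98.2 and 166 CPM (0.591) and Psmb7 at 60.6 and 86.0 CPM (0.705). None of the 3 immunoproteasome subunits was past the limit: Psmb8 was at 290 and 265 CPM (1.09, 0.965 to 1.24), Psmb9 at 81.5 and 85.1 CPM (0.958) and Psmb10 at 67.9 and 66.7 CPM (1.02). The highest ratios were 1.2 for Psme1, at 277 and 230 CPM, 1.16 for Psmb1, at 394 and 338 CPM, and 1.15 for Psme4, at 24.0 and 20.9 CPM.

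Expression of cell cycle genes differed along with the Prss34 classes. Cells with 0.1% or more of their UMIs from a list of cycling genes made up 1.87% of the low and 55.9% of the high cells in the cKIT- library, and 46.4% and 72.3% in the cKIT+ library. The median depth of the cKIT- classes was 3404 and 8634.5 UMIs. Among cKIT- cells under the cycling limit alone, 5 members were at least 1.5-fold lower in the low cells instead of 16. No share over all genes is given for that subset, so the fall is not read as a result about the members. The part of depth in these counts was not tested.

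Compared directly, the cells with more cycling genes had more of most members, while the summed immunoproteasome subunits hardly differed. In the cKIT+ library, with 1606 such cells and 1021 others, 3 of 42 members were at least 1.5-fold higher and 0 lower, where 6.81% of all genes tested were higher and 2.15% lower, and the median log2 ratio was 0.30 against 0.06 over all genes. The 3 were the ATPases Psmc3 at 187 and 123 CPM (1.52) and Psmc1 at 69.4 and 46.2 CPM (1.5), and Psmd14 at 115 and 76.0 CPM (1.51). All 3 lie close to the limit: 0 members were past it with TMM scaling (trimmed mean of M values) or with a cycling limit of 0.2%, and 7 with halved gates. In the cKIT- library, with 948 cells against 1190, 10 of 42 members were higher and 0 lower, where 16.2% of all genes tested were higher and 11.1% lower, with medians of 0.44 and 0.04. The recombination factor Psmc3ip led at 30.8 and 16.4 CPM (1.87), followed by Psmd14 at 116 and 68.5 CPM (1.69) and Psmc1 at 82.7 and 48.9 CPM (1.69). The others were Psmb6, Psmc3, Psmc4, Psmc5, Psmd1, Psmd5 and Psmd13. Summed over their group, the ATPases had ratios of 1.34 and 1.53 in the cKIT+ and cKIT- libraries, the catalytic subunits 1.28 and 1.48, and the immunoproteasome subunits 1.02 and 0.976. Psmb10 was lower in the cKIT- cycling cells, with a ratio of 0.789 (0.700 to 0.890), and at 0.928 (0.852 to 1.01) in the cKIT+ library did not differ beyond counting error. Psmb9 went the other way, at 89.4 and 78.1 CPM in the cKIT- (1.14) and 76.4 and 69.5 CPM in the cKIT+ library, both beyond counting error.

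Divided by both measures, the share of UMIs held by the members moved in opposite directions in the 2 libraries among cells under the cycling limit. In cKIT+ cells it was 0.630% where Prss34 was under 0.5% of UMIs, 0.598% at 0.5 to 2%, 0.572% at 2 to 5% and 0.5% at 5% or more, from 330, 361, 285 and 45 cells. In cKIT- cells it was 0.467%, 0.485%, 0.528% and 0.542%, from 262, 211, 346 and 371 cells. In cells over the limit the cKIT+ shares were 0.735%, 0.710%, 0.700% and 0.656%, and the cKIT- shares were 0.615%, 0.664% and 0.651% from the class of 0.5 to 2% on, the lowest class holding 5 cells and not being described. The totals include Mcpt8 and Prss34. Without them, low minus high under the limit was 0.0377 percentage points in cKIT+ and -0.117 in cKIT- cells. Over all basophil-gated cKIT+ cells it turned from 0.0235 to -0.0127. Whether a Prss34 class holds like cells in both libraries was not tested.

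Among cells under the limit, the catalytic sum went the same way as the share of all members in both libraries. The immunoproteasome sum had no single direction in cKIT- cells. In cKIT+ cells the immunoproteasome sum fell up to the highest Prss34 class, whose interval was too wide to place it. In cKIT- cells under the cycling limit the catalytic sum was 298, 318, 392 and 408 CPM from the lowest to the highest Prss34 class, while the immunoproteasome sum was 435, 435, 447 and 405 CPM. In cKIT+ cells under the limit the catalytic sum was 486, 482, 456 and 346 CPM and the immunoproteasome sum 495, 461, 430 and 449 CPM. The interval for counting error of the lowest class, 473 to 519 CPM, lay above that of the class at 430 CPM, 407 to 453. That of the highest class, 385 to 520 CPM from 45 cells, overlapped with those of all other classes. Above the limit, the cKIT+ immunoproteasome sums were 548, 489, 444 and 404 CPM and the catalytic sums 644, 602, 598 and 558 CPM.

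**Figure D2:**
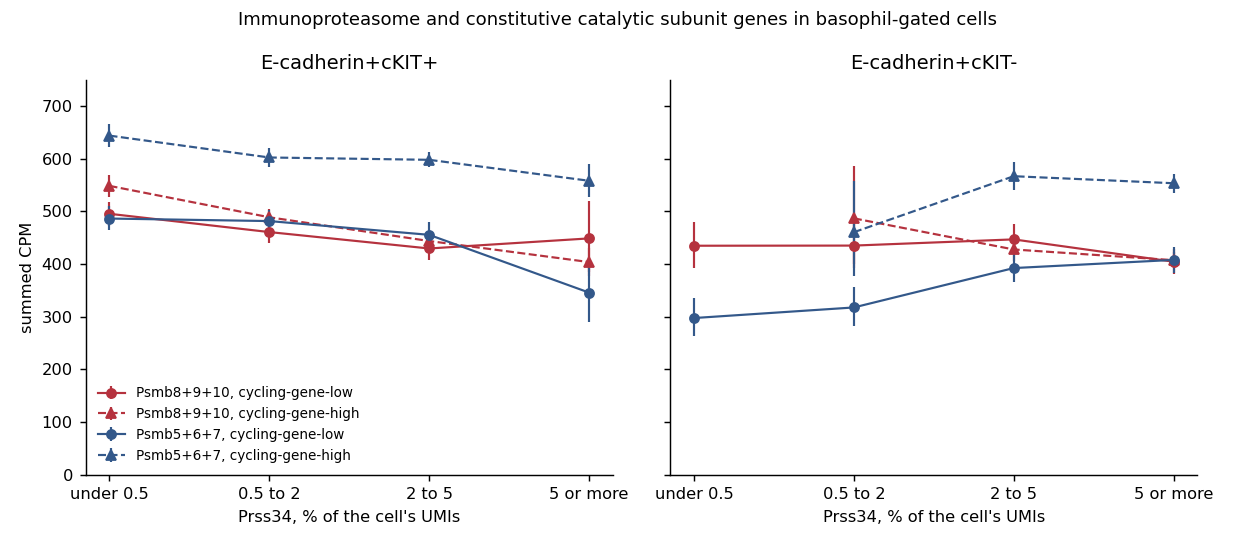
Summed CPM of the immunoproteasome subunits (red) and of the catalytic subunits they replace (blue) on the vertical axis, in classes of Prss34 share of UMIs on the horizontal axis, for basophil-gated cells under (circles, solid lines) and over (triangles, dashed lines) the cycling-gene limit, with 1 panel per library and 95% intervals for counting error. In cKIT- cells under the limit the catalytic sum goes from 298 to 408 CPM while the immunoproteasome sum stays between 405 and 447 CPM.

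Cell types sorted along with the basophils differed widely in the balance of the 2 sets. The ratio of the immunoproteasome sum to the catalytic sum was 0.833 (0.816 to 0.850) in cKIT+ and 0.869 (0.842 to 0.898) in cKIT- basophil-gated cells, at 470 and 565 CPM and at 420 and 484 CPM. Among the cKIT+ gates, cells with MHC class II genes, called dendritic-cell-gated, had the highest ratio, 2.53 (2.15 to 2.99), at 980 and 387 CPM from 75 cells. The erythroid-gated cells had the lowest, 0.321 (0.211 to 0.476), at 101 and 316 CPM from 56 cells, a value that moved to 0.180 with doubled and 0.144 with halved gates. Between them came the neutrophil-gated cells at 0.792, the eosinophil-gated at 0.868, the granulocyte-monocyte progenitor-gated at 0.958 (0.932 to 0.986), the ungated at 0.997, the B-cell-gated at 1.01 (0.866 to 1.18), the macrophage-gated at 1.16 (0.927 to 1.46), the mast-progenitor-gated at 1.38 (1.27 to 1.5) and the monocyte-gated at 1.43 (1.16 to 1.77). From the neutrophil to the monocyte gate, each interval overlaps with that of its next neighbour in this order. Of 64 recomputed ratios of both libraries, 15 moved past the limits set. In cKIT+ these lay in the basophil, ungated, B-cell, erythroid, eosinophil, neutrophil and monocyte gates, so this order depends on the processing. Neutrophil marker genes held 1.72% of UMIs in erythroid-gated cells, against 0.0229% in basophil-gated cells.

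**Figure D3:**
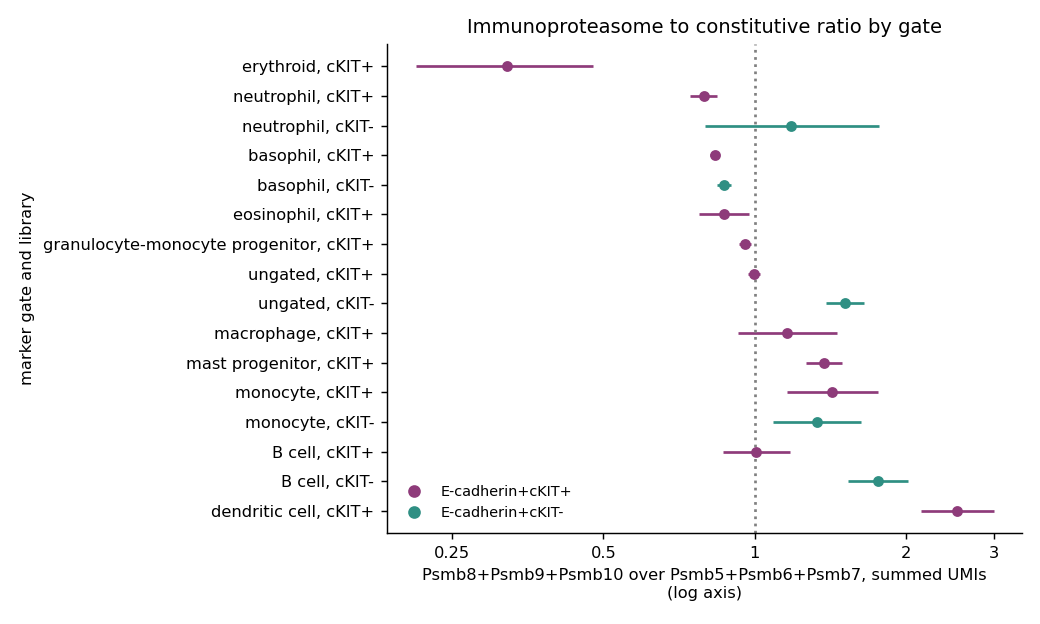
Ratio of the summed immunoproteasome subunits Psmb8, Psmb9 and Psmb10 to the summed catalytic subunits Psmb5, Psmb6 and Psmb7 (horizontal axis, log scale) in each marker gate of the cKIT+ (purple) and cKIT- (green) libraries, with 95% intervals for counting error. The dendritic-cell-gated cells lie highest at 2.53 and the erythroid-gated cells lowest at 0.321. The dotted line marks equal sums of counts, which need not be equal amounts of transcript.

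Where the cKIT- library had enough cells, 2 gates differed from their cKIT+ counterparts. B-cell-gated cells had a ratio of 1.76 (1.54 to 2.02), at 844 and 480 CPM, against 833 and 825 CPM in the cKIT+ library, so the libraries were closer in the immunoproteasome sum than in the catalytic sum. Cells over the cycling limit made up 29.0% of the 69 cKIT+ and 2.64% of the 227 cKIT- B-cell-gated cells. Ungated cKIT- cells had a ratio of 1.52 (1.39 to 1.65), at 445 and 294 CPM. Monocyte-gated cells, at 1.33 (1.09 to 1.63), and neutrophil-gated cells, at 1.18 (0.795 to 1.77), had wide intervals from 35 and 62 cells.

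The ungated cKIT- cells carried basophil genes other than the 2 of the gate. The IgE receptor genes Ms4a2 and Fcer1a were at 1953 and 772 CPM, Cd200r3 at 653 CPM and the chemokine gene Ccl6 at 6220 CPM, with Cdh1 at 322 CPM, Mcpt8 at 1760 CPM and Prss34 at 278 CPM. In gates that should lack it, Prss34 was at 150 CPM (B cell) and 153 CPM (neutrophil) in the same library, and whether free RNA, doublets or the cells themselves gave these UMIs was not tested. Of 42 members, 15 were at least 1.5-fold lower in the ungated than in the basophil-gated cKIT- cells and 0 higher, where 18.9% of all genes tested were lower and 21.5% higher, with a median log2 ratio of -0.48 against 0.10. Psmc3 was at 75 and 148 CPM (0.507) and Psmb6 at 86.2 and 158 CPM (0.546). Cells over the cycling limit made up 0.198% of the ungated cells, whose median depth was 2869 UMIs.

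**Figure D4:**
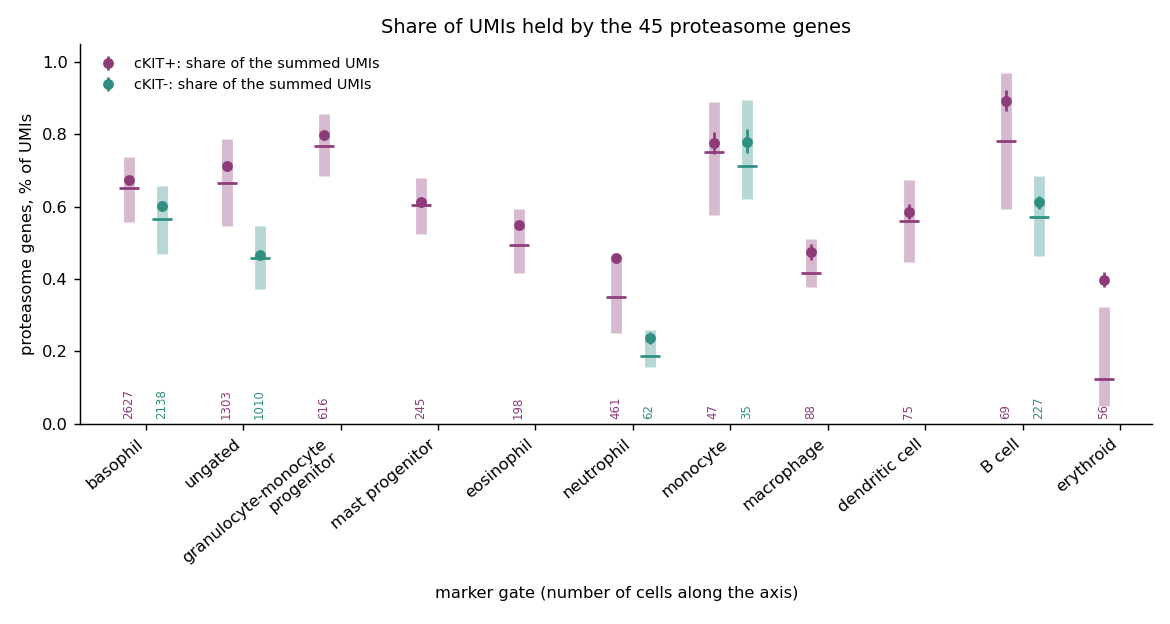
Share of UMIs held by the 45 proteasome genes (vertical axis, percent) in each marker gate (horizontal axis, with cell numbers) of the cKIT+ (purple) and cKIT- (green) libraries. Points are shares of the summed UMIs with 95% intervals for counting error, and bars and dashes are the middle quartiles and the median over cells with 2000 UMIs or more. B-cell-gated cKIT+ cells lie at 0.893%, and neutrophil-gated cells at 0.457% and 0.236%. The total of each gate includes its own marker genes.

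The share of UMIs given to the members ranged over the cKIT+ gates from 0.893% in B-cell-gated cells, 0.798% in granulocyte-monocyte progenitor-gated cells and 0.776% in monocyte-gated cells, through 0.674% in basophil-gated cells, to 0.457% in neutrophil-gated and 0.398% in erythroid-gated cells. The last value depends on how the cells are weighted: the median over erythroid-gated cells with 2000 UMIs or more was 0.122%. In the cKIT- library the order was monocyte-gated at 0.780%, B-cell-gated at 0.612%, basophil-gated at 0.601%, ungated at 0.465% and neutrophil-gated cells at 0.236%. The total of each gate includes its own marker genes, which lower the share left for other genes. They held 43.2% of UMIs in cKIT+ erythroid-gated cells and 32.9% and 44.9% in cKIT+ and cKIT- neutrophil-gated cells. In cKIT+ and cKIT- basophil-gated cells they held 4.15% and 8.19%. Shares without the markers were not computed for these gates, so the low end is not read as a result about the members.

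Member by member, the ungated cells differed from the basophil-gated cells of the cKIT+ library in no call at 1.5-fold, and the gates differed in 3 to 24 members. Against cKIT+ basophil-gated cells, 3 of 42 members were at least 1.5-fold higher and 1 lower in granulocyte-monocyte progenitor-gated cells, where 12.8% of all genes tested were higher and 14.6% lower. In mast-progenitor-gated cells 1 was higher and 2 lower, against 25.5% and 12.4% of all genes, and in ungated cells 0 and 0, against 6.71% and 6.11%. In eosinophil-gated cells 1 was higher and 4 lower (19.6% and 14.8% of all genes), in neutrophil-gated cells 0 and 15 (10.3% and 43.5%) and in erythroid-gated cells 3 and 21 (13.6% and 65.4%). Of 43 members tested, B-cell-gated cells had 16 higher and 0 lower (32.5% and 16.4%), monocyte-gated cells 7 and 5 (32.8% and 21.9%), dendritic-cell-gated cells 5 and 15 (27.3% and 26.7%) and macrophage-gated cells 2 and 16 (32.9% and 27.7%). In the cKIT- library, B-cell-gated cells had 5 higher and 1 lower of 43 (33.2% and 23.2%), monocyte-gated cells 13 and 1 of 43 (32.7% and 21.3%), and neutrophil-gated cells 0 and 38 of 42 (14.2% and 62.4%). TMM scaling was not run on the cKIT- gates. The count of 38 therefore has no scaling check, and the markers of that gate held 44.9% of its UMIs. Where 43 members were tested, the added member was Psme2b, at 7.13 CPM in cKIT+ and 6.07 CPM in cKIT- basophil-gated cells. It passed the level limit only through the other gate, so its place among the higher members there was set by the filter.

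These counts lean on the scaling. TMM scaling moved all log2 ratios by 0.87 in erythroid-gated, 0.53 in neutrophil-gated, -0.36 in B-cell-gated, -0.26 in mast-progenitor-gated, -0.23 in monocyte-gated, -0.16 in macrophage-gated and -0.13 in eosinophil-gated cKIT+ cells. The members then numbered 14 higher and 9 lower in erythroid-gated, 1 and 1 in neutrophil-gated, 5 and 1 in B-cell-gated, 0 and 11 in mast-progenitor-gated, 6 and 8 in monocyte-gated, 2 and 24 in macrophage-gated and 1 and 11 in eosinophil-gated cells. With the same scaling, all genes numbered 1890 higher and 2400 lower of 6435 in erythroid-gated and 1502 and 1094 of 7068 in neutrophil-gated cells. They numbered 1373 and 2072 of 7746 in B-cell-gated, 1166 and 1587 of 7701 in mast-progenitor-gated and 1967 and 2312 of 7807 in monocyte-gated cells. In macrophage-gated cells they were 2286 and 2701 of 8081, and in eosinophil-gated cells 1081 and 1469 of 7601. The shift turns the erythroid median of the members from below to above 0 and the monocyte median from above to below, and it applies to all genes alike. Beside all genes, the median log2 ratios of the members were 0.45 against 0.28 in B-cell-gated cells, -0.65 against -1.05 in erythroid-gated, 0.14 against 0.16 in monocyte-gated, -0.54 against -0.50 in neutrophil-gated, -0.43 against 0.05 in macrophage-gated, -0.46 against -0.03 in dendritic-cell-gated and -0.28 against 0.07 in eosinophil-gated cells.

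**Figure D5:**
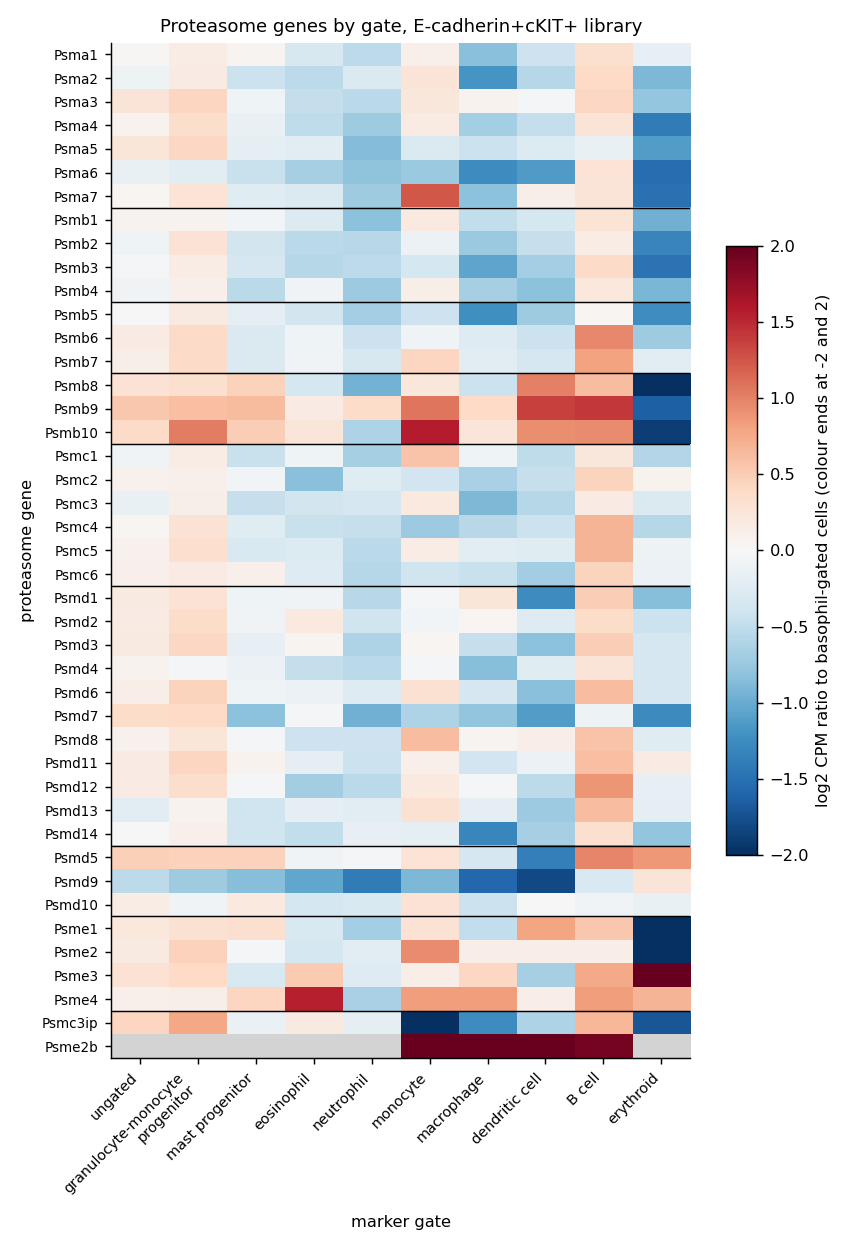
Log2 ratio (colour, ending at -2 and 2) of the level of each proteasome gene (vertical axis, ordered by role) in each marker gate (horizontal axis) to that in basophil-gated cells of the cKIT+ library, with genes under the level limit in grey. Psmd9 is blue in every gate but the erythroid, Psmb8, Psmb9 and Psmb10 are red in dendritic-cell-gated and B-cell-gated cells, and Psme3 is red in erythroid-gated cells.

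The immunoproteasome subunits set several of these gates apart. Psmb9 (chr17:34181987-34187764, minus strand), the replacement of Psmb6, was at 197 and 179 CPM in B-cell-gated cells of the cKIT+ and cKIT- libraries, 2.65 and 2.11 times the basophil-gated level, at 193 CPM in dendritic-cell-gated (2.59), 115 CPM in mast-progenitor-gated (1.55) and 113 CPM in granulocyte-monocyte progenitor-gated cells (1.52). Ungated cKIT+ cells were close to the 2 progenitor gates, with Psmb9 at 108 CPM (1.46, 1.37 to 1.55). TMM scaling would lower the cKIT+ B-cell-gated and mast-progenitor-gated ratios. Psmb8 (chr17:34197721-34201454, plus strand), the replacement of Psmb5, lies near Psmb9 in the MHC region, with Tap1 between them. It was at 661 CPM in dendritic-cell-gated cells (2.00), at 509 and 520 CPM in B-cell-gated cells and at 59.7 CPM in erythroid-gated cells (0.181). TMM scaling would raise the erythroid-gated ratio. Psmb10 (chr8:105935735-105938444, minus strand), the replacement of Psmb7, peaked elsewhere: monocyte-gated cells had 196 CPM in the cKIT+ (2.97) and 250 CPM in the cKIT- library (3.72), and granulocyte-monocyte progenitor-gated cells had 134 CPM (2.03, 1.91 to 2.16). The 3 genes did not share 1 order of gates.

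Among alpha subunits, Psma7 (chr2:180036374-180042433, minus strand) stood out in monocyte-gated cells. It was at 965 and 901 CPM in the monocyte-gated cells of the cKIT+ and cKIT- libraries and at 410 and 337 CPM in the basophil-gated cells, ratios of 2.35 (2.09 to 2.64) and 2.67 (2.35 to 3.04). Both libraries thus had the same direction with intervals that overlap.

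Over the 10 gates of the cKIT+ library the activators each had a different high gate. The cKIT- library had only the basophil, B-cell, neutrophil and monocyte gates, and there all 4 were highest in monocyte-gated cells. These gates leave out those where Psme1, Psme3 and Psme4 were highest in cKIT+, so the 2 orders cannot be compared. In the cKIT- library Psme1 was at 290 CPM in monocyte-gated and 275 CPM in B-cell-gated cells. In the cKIT+ library Psme1 was highest in dendritic-cell-gated cells at 429 CPM and lowest in erythroid-gated cells at 59.7 CPM (0.240), where Psme2 was also low at 20.9 CPM (0.162). TMM scaling would raise the erythroid-gated ratios, by 0.87 in log2. Psme3 (chr11:101316213-101323537, plus strand) was at 182 CPM in erythroid-gated and 33.1 CPM in basophil-gated cells, a ratio of 5.50 (4.18 to 7.11) that rests on 61 UMIs. Psme4 (chr11:30771726-30880361, plus strand) was at 76.9 CPM in eosinophil-gated and 26.0 CPM in basophil-gated cells (2.95, 2.38 to 3.62). Psme2b, under the level limit in basophil-gated cells at 7.13 and 6.07 CPM, was at 59.7 and 54.3 CPM in monocyte-gated cells of the 2 libraries, 46.5 CPM in macrophage-gated, 38.1 CPM in dendritic-cell-gated and 26.8 and 50.6 CPM in B-cell-gated cells. Psme2 was also high in cKIT+ monocyte-gated cells, at 249 CPM, and how the counting divided reads between Psme2 and Psme2b is not given in the sources used here.

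Psmd9 (chr5:123169413-123250131, plus strand) was higher in basophil-gated cells than in most other gates. Its level was 86.9 CPM in cKIT+ and 110 CPM in cKIT- basophil-gated cells. In the cKIT+ library it was 70.6 CPM in B-cell-gated cells (0.812), 60.3 CPM in ungated (0.694), 53.1 CPM in granulocyte-monocyte progenitor-gated (0.611), 48.0 CPM in mast-progenitor-gated (0.552), 46.4 CPM in monocyte-gated (0.534), 42.2 CPM in eosinophil-gated (0.485), 33.1 CPM in neutrophil-gated (0.381), 29.3 CPM in macrophage-gated (0.337) and 24.8 CPM in dendritic-cell-gated cells (0.285). The B-cell-gated value did not differ from the basophil-gated one beyond counting error (0.543 to 1.17), nor did that of the erythroid gate, at 104 CPM (1.2, 0.835 to 1.67), which TMM scaling would raise further. In the cKIT- library the values were 59.4 CPM in ungated (0.540), 50.6 CPM in B-cell-gated (0.460), 21.7 CPM in monocyte-gated (0.198, 0.0724 to 0.431) and 9.54 CPM in neutrophil-gated cells (0.0868, 0.0179 to 0.254). The last 2 values rest on few UMIs. The gene model of Psmd9 overlaps that of Gm26745, and whether the counting used strand is not given in the sources used here, so reads of the overlap cannot be assigned with certainty. Psmd7, the member that differed most between the sorts, had another order of gates, at 266 CPM in granulocyte-monocyte progenitor-gated (1.31, 1.26 to 1.36), 203 CPM in basophil-gated, 114 CPM in mast-progenitor-gated (0.564), 104 CPM in neutrophil-gated and 83.5 CPM in erythroid-gated cKIT+ cells (0.412). TMM scaling would raise the neutrophil-gated and erythroid-gated ratios and lower the mast-progenitor-gated one, so the order of these gates depends on the scaling.

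Promoter windows of RefSeq (GRCm38.p6, from 250 bases before to 50 after each start) were searched on both strands for motifs of factors known to act on proteasome genes, and 38 of the 45 members had a window. The antioxidant response element core TGACNNNGC, to which the factors encoded by Nfe2l1 and Nfe2l2 bind, was in 6 of 38 (15.8%, against 14% of 27025 genes): Psmb5, Psmb6, Psmc6, Psmd12, Psmd9 and Psme4. The core of the interferon-stimulated response element was in 4 (10.5% against 3.99%): Psmb3, Psmd4, Psmd9 and Psme1. The gamma-activated sequence core TTCNNNGAA was in 2 (5.26% against 9.55%), Psmb8 and Psmd2, and the CCAAT box in 15 (39.5% against 41.1%). None of these shares is a test, and a match of letters is not a bound site. Stretches are shown upstream of Psmb5 and Psmb6, the catalytic subunits that were at least 1.5-fold lower in Prss34-low cKIT- cells. Also shown is that of Psmd9, which was higher in basophil-gated cells than in most other gates. All are on the gene's strand, 5′ to 3′, with the antioxidant and interferon cores in capitals.
Psmb5, chr14:54618023-54618145, minus strand: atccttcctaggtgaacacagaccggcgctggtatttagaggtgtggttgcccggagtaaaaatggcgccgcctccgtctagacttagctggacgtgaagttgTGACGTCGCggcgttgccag
Psmb6, chr11:70525207-70525356, plus strand: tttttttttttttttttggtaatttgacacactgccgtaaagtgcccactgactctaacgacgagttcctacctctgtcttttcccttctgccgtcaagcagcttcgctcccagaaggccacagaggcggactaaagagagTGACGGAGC
Psmd9, chr5:123228020-123228189, plus strand: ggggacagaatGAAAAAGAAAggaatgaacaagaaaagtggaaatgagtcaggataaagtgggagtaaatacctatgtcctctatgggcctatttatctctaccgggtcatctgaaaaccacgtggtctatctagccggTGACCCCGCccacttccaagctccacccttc
The Psmd9 stretch lies in introns of the Psmd9 and Gm26745 models and overlaps no exon of the annotation. The Psmb5 and Psmb6 stretches end upstream of the transcribed part, and both hold the antioxidant core within their last bases.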

How the data were processed

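Bone marrow cells of 2 sorts gave 1 droplet library each. UMI counts per gene and cell were deposited by the authors, made with Cell Ranger 3.0.2 on mm10 per the submitters' processing notes. The study's methods name version 3 of the 3′ kit and a sample label another version. Following the methods, genes in under 40 cells did not count for filtering, and the 1% of cells with most and fewest genes and the 1% with most UMIs were dropped. Counts were summed per group and expressed as CPM. Intervals at 95% are exact Poisson for shares and sums and exact binomial for ratios. With 1 library per sort no test was made: a gene was called at 1.5-fold with a mean of 10 CPM or more. Gates used the share of UMIs from marker genes: B cell 0.2%, macrophage 0.3%, erythroid 2%, eosinophil 1%, neutrophil 2%, dendritic cell 2%, granulocyte-monocyte progenitor 1%, monocyte 0.5%, mast progenitor 0.1%, basophil 0.5%. Cells passing the basophil and another gate were set aside (694 cKIT+, 164 cKIT-, of which 595 and 153 by the progenitor gate); no doublet caller was run. A cell passing several gates other than the basophil gate was given to the first of them in the order listed. In all, 174 cKIT+ and 151 cKIT- cells passed 2 or more of these gates. Gates under 20 cells were not described. The cycling genes were Mki67, Top2a, Cdk1, Birc5, Ccna2, Ccnb1, Ccnb2, Cenpf, Tpx2, Hmmr, Ube2c, Pclaf, Rrm2, Tyms and Mcm5. Members, lists and gates were chosen with earlier results of these data known. Named with values were the 3 highest and lowest ratios, the immunoproteasome and catalytic members and Psme1 to Psme4; other members named in the lineage gates were chosen after their values were seen. Alternatives were TMM (edgeR 4.0.16, R 4.3.3), other filters, doubled and halved gates, thinning to 2000 UMIs, leaving out the top 10 genes or the top 5% of cells by UMIs, cells under the cycling limit alone and, chosen after seeing the data, set-aside cells counted as basophil-gated, Mcpt8 and Prss34 left out of the total, and Prss34 classes over basophil-gated and ungated cells. Positions came from GENCODE M21, which matched 30934 of 31053 identifiers. Summaries used Python 3.11.15, NumPy 2.4.6, pandas 2.3.3 and SciPy 1.17.1. The comparison step was checked on simulated data. Results of some genes are not reported here.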

Additional observations from a re-analysis of the deposited data

Results flagged for a closer look

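The share of UMIs held by the proteasome genes moved in opposite directions with Prss34 in the 2 libraries. The difference of Prss34-low minus Prss34-high basophil-gated cells was +0.0235 percentage points in the cKIT+ and -0.133 in the cKIT- library, and +0.0659 and -0.0694 among cells under the cycling limit alone. The difference between the libraries was not tested, each being 1 library. Whether low Prss34 marks like cells in both was not tested either. With Mcpt8 and Prss34 left out of the total, the values were -0.0127 and -0.191, so the cKIT+ direction turned, and under the cycling limit alone they were 0.0377 and -0.117.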

How the results depend on the processing

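No paired analysis was possible because each sort has a single library. Of 228 values recomputed, 177 stayed within the limits set for them and 51 moved. The members' share was 0.690% in cKIT+ and 0.592% in cKIT- with all deposited barcodes, 0.748% and 0.691% without the top 10 genes, 0.633% and 0.540% after thinning to 2000 UMIs and 0.619% and 0.534% with cells weighted equally, and the cKIT+ share was higher in each. With no level filter other than 10 UMIs, 2 members were higher in cKIT+ among all cells and 2 among basophil-gated cells. Without the top 10 genes 1 was lower among all cells, and among cells under the cycling limit alone 3 were higher among basophil-gated cells. In the Prss34 comparison 1 member was higher in cKIT+ low cells under the cycling limit alone and 1 when ungated cells were added to the classes. In cKIT- cells, 1 was higher and 10 lower with doubled gates, and 5 lower under the cycling limit alone. In the cycling comparison, members higher in cKIT+ numbered 0 with TMM, 7 with halved gates, 1 with set-aside cells counted and 0 with a limit of 0.2%, and in cKIT- 17 with halved gates. The ratio of immunoproteasome to catalytic sums in cKIT+ was 0.911 in basophil-gated cells with halved gates, 1.11 and 1.05 in ungated cells and 1.40 and 1.23 in B-cell-gated cells after thinning and without the top 5% of cells by UMIs, 0.180 and 0.144 in erythroid-gated cells with doubled and halved gates, 1.07 in eosinophil-gated and 0.724 in neutrophil-gated cells after thinning, and 2.0 in monocyte-gated cells with doubled gates. In cKIT- it was 0.964 after thinning, 0.841 and 0.986 with doubled and halved gates and 0.908 without the top 5% in basophil-gated cells, and 2.0 in monocyte-gated cells with doubled gates. Counts against cKIT+ basophil-gated cells became, without the top 5%, 1 lower in B-cell-gated, 35 lower in erythroid-gated and 11 lower in eosinophil-gated cells. With halved gates they became 1 higher in macrophage-gated, 2 higher and 1 lower in eosinophil-gated, 7 lower in neutrophil-gated, 2 lower in monocyte-gated and 1 lower in mast-progenitor-gated cells. With doubled gates they became 23 lower in neutrophil-gated, 11 higher and 11 lower in monocyte-gated, and 0 higher and 4 lower in mast-progenitor-gated cells. The cause of these moves was not tested. No share over all genes is given beside these recomputed member counts. A change in the members can therefore not be told apart from a change in all genes. With 1 library per sort, differences between the sorts cannot be told apart from differences between libraries, and gates of under 100 cells rest on few UMIs per gene.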
